A study of Mus musculus with 11 samples.

Results

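The genes described here are 10 genes used as markers of meningeal fibroblasts, the connective tissue cells of the membranes that wrap the brain: Hic1, Dcn, Lum, Foxc1, Foxc2, Foxd1, Twist1, Aldh1a2, Slc6a13 and Osr1. They were 10 of 48709 genes in the count tables, found by matching Ensembl identifiers to gene symbols, and all 10 had enough counts to be among the 17365 genes tested. The sources used here do not say which measured values chose the members, and they are treated as chosen by their change between mimic and control in these same samples. The differences between the groups are therefore a description of the members. Whether the fit over all genes called a member is stated beside its values, but no p is given and nothing is supported by it. RNA was sequenced from primary hippocampal cells of CD1 mouse embryos at embryonic day 17. On day 10 in vitro both groups received lipid nanoparticles, packed either with a mimic of the microRNA miR-181a-5p (mimic, 5 samples) or with a negative control oligonucleotide (control, 6 samples). RNA was collected on day 12 in vitro, after 48 hours. By the study's methods the particles were given to both groups together with apolipoprotein E4, and the hippocampi of several embryos were pooled. The labels call the cells neurons. For another experiment, with a mix of mimics, the paper describes primary hippocampal cultures as holding both neurons and glia. No label says that replicates came from separate cultures, so the p-values given for other genes measure the spread between these samples, which may be technical.

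The meninges consist of dura, arachnoid and pia, and the innermost layer, the pia, follows the surface of the brain and dips into the fissure of the hippocampus. Their fibroblasts lay down collagens and proteoglycans, build the basement membrane under which cortical neurons migrate, and release signals such as retinoic acid, bone morphogenetic proteins and the chemokine CXCL12 to the brain below. They arise from neural crest and mesoderm and use forkhead, TWIST and odd-skipped transcription factors that neurons and astrocytes do not normally use. In bulk RNA, more cells of a type and more RNA per cell cannot be told apart, and this holds for every difference given below.

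The sequences are shown first because the samples differ in the oligonucleotide they received. In the strands below, taken from the study's oligonucleotide list, capitals mark bases 2 to 8 from the 5′ end, the seed by which a microRNA finds its targets.

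miR-181a-5p mimic: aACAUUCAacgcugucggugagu

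negative control: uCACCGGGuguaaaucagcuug

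The mimic strand was identical to the mature mouse miR-181a-5p in RefSeq, which is encoded at chr1:137966468-137966490 (Mir181a-1) and chr2:38852741-38852763 (Mir181a-2), both on the plus strand of GRCm38.p6. A target carries the reverse complement of the seed. The 7-base match is TGAATGT, a match followed by A is an 8-base site, and the shorter GAATGT is a 6-base site. They were searched on the transcript strand alone, in 1 annotated 3′ UTR per gene, the longest, and a gene counted once under its longest match, so an 8-base site was not counted again as the TGAATGT within it. The 4 members with a match are printed with their flanks (GENCODE M21 annotation, GRCm38, plus strand, capitals mark the match).

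Foxd1, chr13:98358199-98358224: ccccgaggaTGAATGTgtagctgccc

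Aldh1a2, chr9:71296145-71296170: ccacagtataGAATGTgaaaatgaag

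Lum, chr10:97572097-97572122: tcatggttggGAATGTgggggatgtt

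Twist1, chr12:33959437-33959462: ttttgacgaaGAATGTtttattttta

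Foxd1 was the only member with TGAATGT, which is 1 of 10 members or 10%. Among the 14512 tested genes with an annotated 3′ UTR, 19.2% had a 7-base or 8-base match. Any match, the 6-base site and the 7-base match that ends in A included, was present in 40% of the members and 38.6% of the genes. The members' 3′ UTRs were short, with a median length of 748 bases against 1374.5 bases over the tested genes. Hic1, Dcn, Foxc1, Foxc2, Slc6a13 and Osr1 held none of these letters in the UTR searched. The counterpart of the control oligonucleotide's seed, CCCGGTG, was in 0 of the 10 members and in 3.36% of the genes. A match describes the sequence alone, and these 4 genes were among those with higher values in mimic samples, described next.

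All 10 members had higher mean values in the mimic than in the control samples. Their log2 fold changes ran from 0.22 for Twist1 to 1.21 for Foxd1, with a median of 0.55 against -0.00015 over all genes tested. By the fit over all genes (edgeR quasi-likelihood test, adjusted p under 0.05), 3 members were called, all higher: Hic1, Foxc1 and Foxd1. Over all genes tested 2.85% were called, and 1.08% were called higher. For 4 members, Hic1, Dcn, Foxd1 and Aldh1a2, every mimic sample lay above every control sample, and 1.16% of all genes tested did the same. As the genes are treated as chosen by these contrasts, nothing is read from these counts. Values below are CPM, that is, counts after library sizes were made equal by the TMM method.

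**Figure D1:**
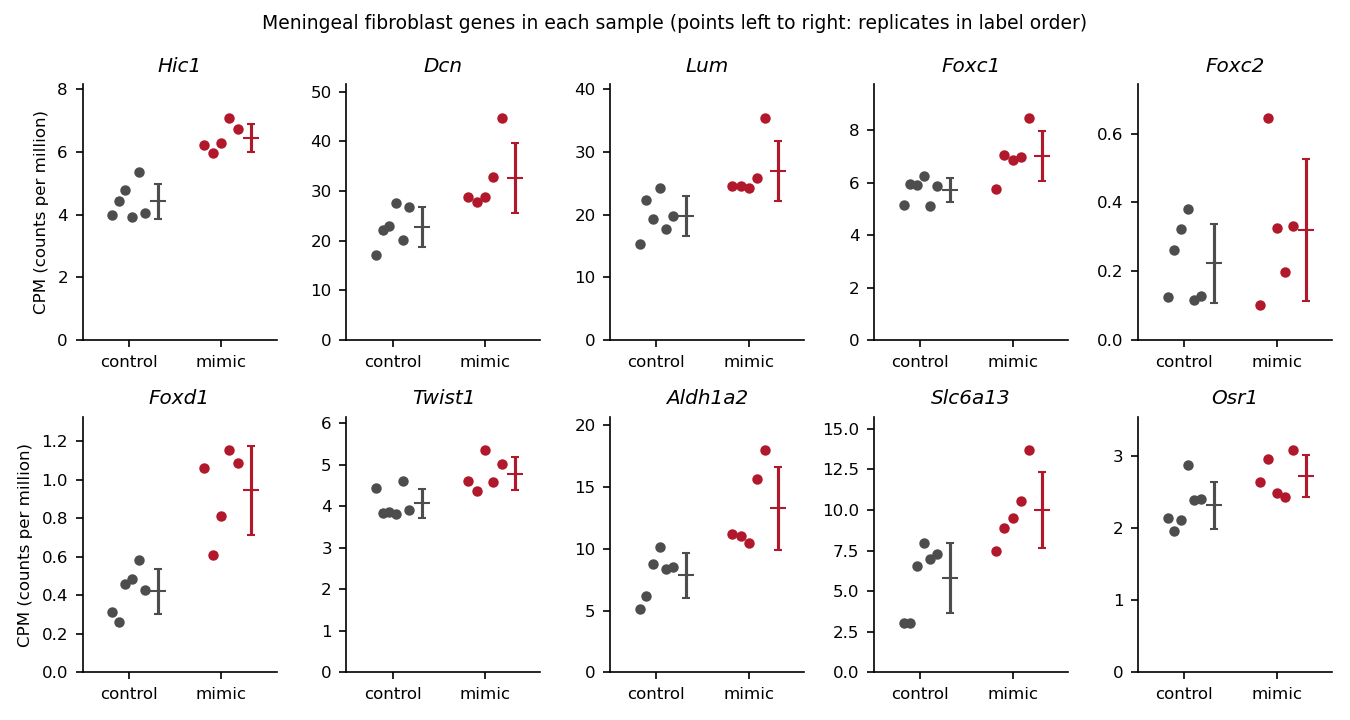
Values of the 10 members in every sample, in CPM from 0 on a scale of its own for each gene, for control (grey, 6 samples) and mimic (red, 5 samples); the bar beside the points is the mean ± SD. Hic1, Dcn, Foxd1 and Aldh1a2 have no overlap between groups, and the last mimic point, replicate 5, is the highest of all samples for 6 genes, among them Dcn at 44.7 and Lum at 35.4.

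Hic1 (ENSMUSG00000043099, chr11:75164565-75169519, minus strand) encodes a zinc finger repressor that marks fibroblasts and their mesenchymal progenitors in many organs. Its CPM in mimic replicates 1 to 5 was 6.24, 5.96, 6.27, 7.09 and 6.73. In the control samples it ran from 3.92 over a median of 4.24 to 5.37. The lowest mimic sample was therefore above the highest control sample, and neither group had a sample far from the rest. The counts behind these values were 92 to 190 reads per sample. Its log2 fold change was 0.58 ± 0.086 (SE, n = 5 and 6), a 1.46-fold difference in mean CPM.

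Foxc1, Foxc2 and Foxd1 encode forkhead transcription factors, of which Foxc1 is required for the meninges and the skull above them to form. Foxc1 (ENSMUSG00000050295, chr13:31806633-31812476, plus strand) was at 5.78, 7.06, 6.87, 6.97 and 8.48 CPM in mimic replicates 1 to 5 and at 5.14 to 6.28 CPM in the controls, median 5.91. Mimic replicate 1 lay inside the control range and the other 4 lay above it. The log2 fold change of Foxc1 was 0.30 ± 0.085 (SE), and when single samples were left out in turn (11 fits), only the fits without control replicate 4 or without mimic replicate 1 still called it.

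Foxd1, which marks stromal progenitors in organs such as the kidney, had the greatest log2 fold change of the 10, 1.21 ± 0.23 (SE), and was scarce. Foxd1 (ENSMUSG00000078302, chr13:98354242-98359305, plus strand) was counted 6 to 29 times per sample. Its CPM in mimic replicates 1 to 5 was 1.06, 0.608, 0.811, 1.16 and 1.09, and the controls ran from 0.261 over a median of 0.445 to 0.584. The groups did not overlap, but mimic replicate 2 was close to the highest control sample. It is also the member with the 7-base match to the mimic's seed shown above, and its level was higher, not lower, in the mimic samples. Foxc2 (ENSMUSG00000046714, chr8:121116171-121118895, plus strand), a paralogue of Foxc1 with roles in vessels and mesenchyme, was counted 2 to 17 times per sample. At this depth a difference in Foxc2 was not detectable: mimic samples were at 0.101 to 0.646 CPM, which spans the whole control range of 0.117 to 0.381 CPM. The limit set by a count of 0, which is 3 counts, lay at 0.0624 CPM in the deepest and 0.174 CPM in the shallowest sample, so several Foxc2 values are close to it. An annotated gene, Gm20388, overlaps Foxc2 on the same strand and had 0 counts in every sample.

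Dcn and Lum encode decorin and lumican, small leucine-rich proteoglycans that bind collagen fibrils and set their thickness and spacing. They are neighbours, Dcn (ENSMUSG00000019929) at chr10:97479609-97518143 and Lum (ENSMUSG00000036446) at chr10:97565128-97572703, both on the plus strand, with 46984 bases and no annotated gene between them. Dcn was at 28.7, 27.8, 28.7, 32.9 and 44.7 CPM in mimic replicates 1 to 5, and at 17.1 to 27.6 CPM in the controls with a median of 22.5. The groups were separate by a narrow margin, and mimic replicate 5 stood well above the other mimic samples.

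Lum varied in much the same way. It was at 24.6, 24.5, 24.2, 25.9 and 35.4 CPM in the mimic replicates and at 15.4 to 24.2 CPM in the controls, median 19.5. Mimic replicate 5 was again the highest, and 1 control sample, replicate 4, reached into the mimic range. The log2 fold changes were 0.53 ± 0.17 (SE) for Dcn and 0.46 ± 0.15 (SE) for Lum, neither called. The ratio of Dcn to Lum counts stayed between 0.988 and 1.35 over the 11 samples, and together both took 52.9% to 63.2% of the members' summed CPM in each sample.

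Aldh1a2 encodes retinaldehyde dehydrogenase 2, which makes retinoic acid and is the meninges' own source of it. Aldh1a2 (ENSMUSG00000013584, chr9:71215789-71296243, plus strand) was at 11.2, 11.1, 10.5, 15.7 and 18 CPM in mimic replicates 1 to 5. The controls ran from 5.17 over a median of 8.46 to 10.2. No control sample reached the lowest mimic sample. The log2 fold change was 0.80 ± 0.22 (SE), and the gene was not called by edgeR but was called by DESeq2.

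Slc6a13 encodes GAT2, a transporter of GABA and taurine that in the brain sits mostly in the leptomeninges. Slc6a13 (ENSMUSG00000030108, chr6:121300227-121337733, plus strand) was at 7.45, 8.89, 9.52, 10.6 and 13.7 CPM in the mimic replicates. The controls were split: replicates 1 and 2 were at 3.07 and 3.05 CPM while replicates 3 to 6 were at 6.52 to 7.94. Mimic replicate 1 lay below the highest control sample. The log2 fold change was 0.85 ± 0.29 (SE), and it was not called.

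Twist1 and Osr1 encode transcription factors of cranial mesenchyme and of connective tissue progenitors, and they differed least. Twist1 (ENSMUSG00000035799, chr12:33957671-33959829, plus strand) was at 4.37 to 5.35 CPM in the mimic and 3.81 to 4.61 CPM in the control samples, and 3 of 5 mimic samples were above every control. Osr1 (ENSMUSG00000048387, chr12:9570116-9581500, plus strand) was at 2.43 to 3.08 CPM in the mimic and 1.96 to 2.88 CPM in the control samples, and 2 of 5 mimic samples were above every control. Both sets of ranges overlapped, and neither gene was called. Their log2 fold changes were 0.22 ± 0.087 (SE) and 0.24 ± 0.12 (SE). A long noncoding gene, 1700022H16Rik, overlaps Osr1 on the other strand but had at most 1 count in any sample.

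**Figure D2:**
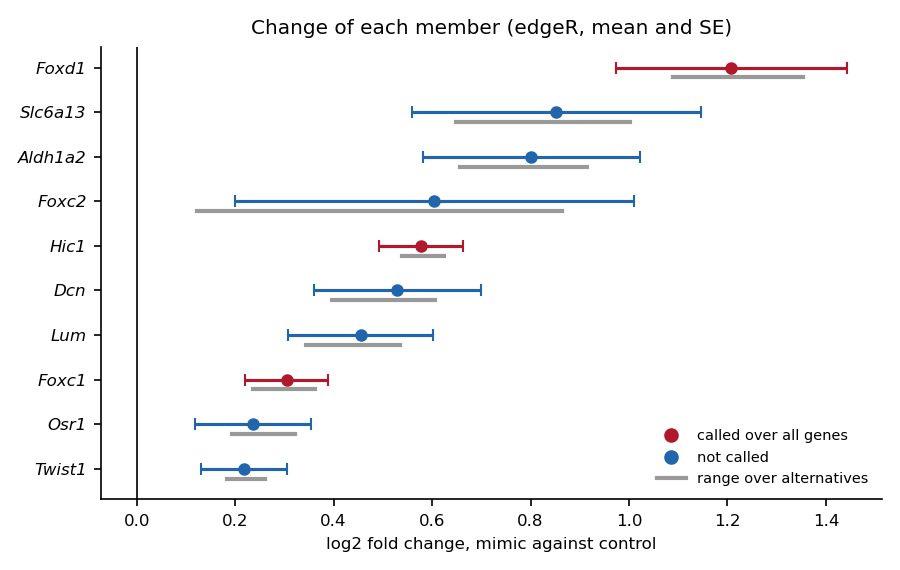
Log2 fold change of each member, mimic against control, with its SE (points and bars, edgeR), and below it the range over the alternative fits (grey line). Red points (Hic1, Foxc1, Foxd1) are called over all genes tested; the range of Foxc2 is the widest, from 0.12 to 0.86.

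Summed over the 10 members, the CPM was 56.9 to 87.7 in the controls (73.4 ± 10.3, SD, n = 6) and 92.4 to 137 in the mimic samples (105.1 ± 18.6, SD, n = 5). The lowest sum was in control replicate 1 and the highest in mimic replicate 5. Control replicate 1 was also the deepest sample, with 48091231 counts where the others had 17287168 to 28934923, and the part of depth in the result was not tested. Without control replicate 1 the members' median log2 fold change was 0.41, and without mimic replicate 5 it was 0.48.

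To compare genes with each other, counts were divided by the length of all annotated exons and scaled to TPM. In control samples the order of mean TPM was Lum (33.6 ± 5.46, SD, n = 6), Dcn (16.2 ± 2.90), Aldh1a2 (14.5 ± 3.41), Twist1 (10.4 ± 0.880), Slc6a13 (8.34 ± 3.15), Hic1 (4.90 ± 0.628), Osr1 (4.66 ± 0.664), Foxc1 (4.08 ± 0.339), Foxd1 (0.347 ± 0.0970) and Foxc2 (0.340 ± 0.175). In this order the ranges over samples were separate for Lum and Dcn and for Foxc1 and Foxd1, and those of all other neighbours overlapped. The order depends on the length used. With the median length of a gene's transcripts, 8 of the 10 levels moved by more than their spread over samples, and the order became Dcn (16.2 TPM), Lum (10.1), Slc6a13 (7.52), Aldh1a2 (4.35) and Twist1 (3.13), with the other 5 genes below in the order already given. By exon length the median gene tested was at 14.4 TPM, above 7 of the members and about level with Aldh1a2.

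Levels of markers of other cells are given for comparison, and which cells the transcripts came from was not tested. Tubb3 and Map2, which encode neuronal cytoskeleton proteins, were at 1823 and 659 TPM in controls. Gfap, the astrocyte filament, was at 721 TPM, and Ttr, the transthyretin of choroid plexus, at 1014 TPM. Ttr made up most of its list: the 11 choroid plexus and ependymal markers summed to 1080 TPM. Their median was 5.73 TPM, against 99.3 TPM for the 10 astrocyte markers. Col1a1 and Col1a2, the chains of type I collagen that fibroblasts secrete, were at 39.4 and 26.4 TPM, in the range of Lum and Dcn.

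**Figure D3:**
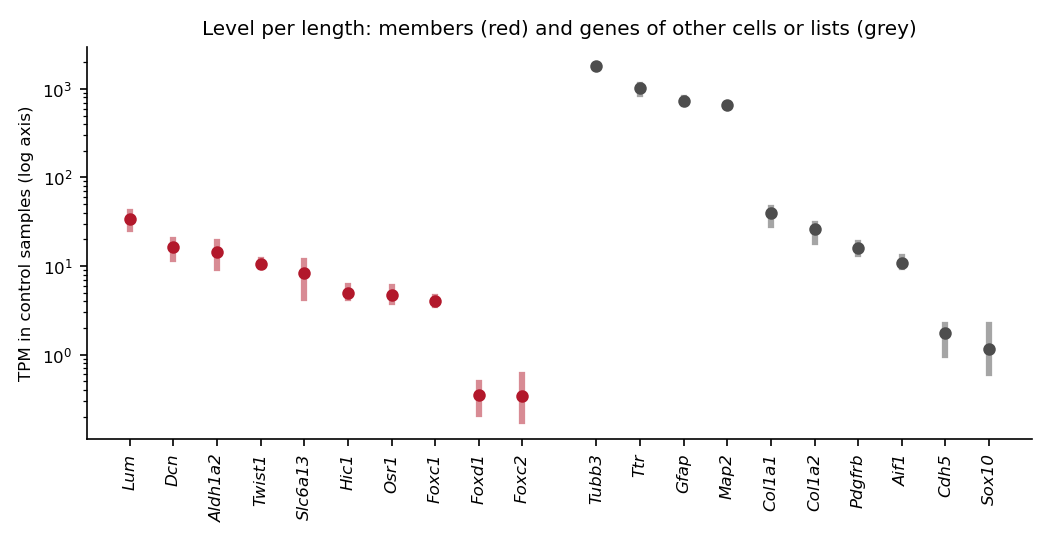
Mean TPM in the 6 control samples (points, log axis) with the range over samples (bars) for the members (red) and for genes of other cells or lists (grey). The members lie between 0.340 (Foxc2) and 33.6 TPM (Lum), below the neuronal, astrocyte and choroid plexus genes Tubb3, Map2, Gfap and Ttr and near Col1a1 and Col1a2.

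How the members vary from sample to sample inside a group does not use the difference between the groups. Each gene's log2 CPM was taken minus its group mean, which left 11 samples and 9 residual degrees of freedom, and the 45 pairs of members were correlated. The samples of such a pair share their library and depth, so the values are descriptions. The median r was 0.33, and 33 pairs were above 0, 15 of them above 0.5. Dcn and Lum varied most alike (r = 0.90, Spearman's rho = 0.91), then Aldh1a2 and Slc6a13 (r = 0.89, rho = 0.86) and Dcn and Aldh1a2 (r = 0.85, rho = 0.84).

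Control replicate 1 and mimic replicate 5, the samples with the lowest and highest sums, carry a part of this. With both left out, the median r over the 45 pairs was 0.15. The r of Dcn and Lum fell to 0.63 and that of Dcn and Aldh1a2 to 0.63, while that of Aldh1a2 and Slc6a13 was 0.80. Links between Lum or Foxc1 and the transporter and enzyme genes weakened further. The r of Lum and Aldh1a2 went from 0.69 to 0.15, that of Lum and Slc6a13 from 0.46 to -0.19, that of Foxc1 and Aldh1a2 from 0.60 to 0.20 and that of Foxc1 and Slc6a13 from 0.48 to 0.14. The lowest and highest median r without any 1 sample were 0.27 and 0.43.

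Each member was also correlated with the mean deviation of the other 9. Aldh1a2 (r = 0.91), Slc6a13 (0.84), Dcn (0.81), Lum (0.68) and Foxc1 (0.64) followed it, and Osr1 (0.52) and Foxd1 (0.48) did so less. Foxc2 (0.16), Hic1 (0.15) and Twist1 (-0.16) did so least. Over the 13920 other genes with at least 1 mean CPM, the median r with the members' mean deviation was -0.026 and the 99th percentile was 0.76. For Foxc2 and Foxd1, with so few reads, a weak r says little.

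**Figure D4:**
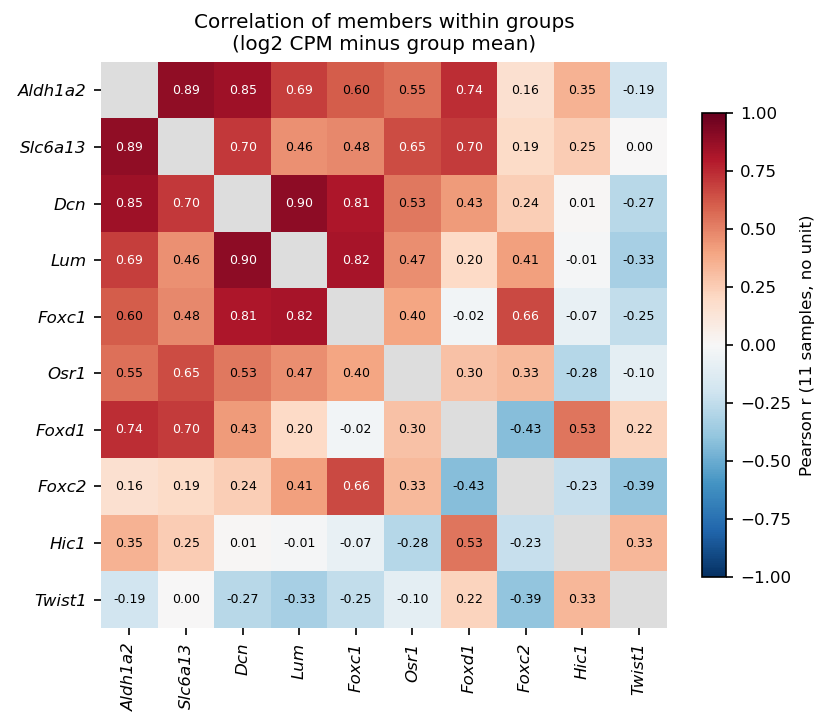
Pearson r between members over 11 samples, log2 CPM minus the group mean, ordered by r with the mean of the other members; grey marks the diagonal. Aldh1a2, Slc6a13, Dcn, Lum and Foxc1 form a block of positive values up to 0.90, parts of which are lost without control replicate 1 and mimic replicate 5, whereas Hic1 and Twist1 have values near or below 0 with Dcn, Lum and Foxc1.

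Among the 8 genes outside the set whose deviations were most like the members' mean were Timp3 (r = 0.98), Igf2 (0.95), Cldn11 (0.95), Cxcl12 (0.94), Flnc (0.94), Bgn (0.94) and Cp (0.94), over 11 samples. Timp3 encodes an inhibitor of matrix metalloproteinases, Igf2 a growth factor, Cldn11 a tight junction claudin of the arachnoid barrier and of myelin, Cxcl12 a chemokine, Flnc a filamin, Bgn the proteoglycan biglycan and Cp ceruloplasmin, a copper enzyme. All 8 stayed among the first 50 genes when any 1 sample was left out. Between mimic and control 0 of the 8 were called by edgeR, 7 had an unadjusted p under 0.05, and DESeq2 called 6. The log2 fold change of Timp3 was 0.04 (adjusted p = 0.729) and that of Cldn11 was 0.96 (adjusted p = 0.0737, edgeR).

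Other genes of meningeal fibroblasts, a list of 38 written beside the members, gave 35 tested genes, of which 4 were called higher (Bmp5, Bmp7, Slc13a4 and Gjb2) and 0 lower. Their median log2 fold change was 0.37, and 34 of 35 were positive. Bmp5 and Bmp7 encode bone morphogenetic proteins, with log2 fold changes of 0.81 ± 0.19 (SE, adjusted p = 0.0203) and 0.19 ± 0.053 (SE, adjusted p = 0.0464, edgeR). The list's summed CPM was 817 to 1145 in controls and 1139 to 1397 in mimic samples, so that the ranges just touched. The calls were fragile. Without control replicate 1, and likewise without mimic replicate 4, 0 genes of the list were called, 1 without mimic replicate 2, 2 without control replicate 2 or mimic replicate 5, and 8 by DESeq2. Of the 29 genes of this list with at least 1 mean CPM, the median r with the members' mean deviation was 0.78, and 8 were among the 50 most alike genes. The same median was 0.52 for 4 endothelial markers, 0.45 for 10 mesenchymal transcription factors, 0.34 for 7 small leucine-rich proteoglycans, -0.24 for neuron markers and -0.15 for astrocyte markers.

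Families and pathways of single members were counted in the same way. Of 12 tested small leucine-rich proteoglycans other than Dcn and Lum, 0 were called at a median log2 fold change of 0.04. Bgn, the most abundant of them, was at 29.3 to 43.8 CPM in controls and 45.0 to 58.2 CPM in mimic samples, separate groups, with a log2 fold change of 0.39 ± 0.11 (SE, adjusted p = 0.122, edgeR), and was called by DESeq2. Of 17 tested mesenchymal transcription factors, 2 rose and 0 fell, with a median log2 fold change of 0.29. They were Foxf2, a forkhead factor of pericytes and mesenchyme (0.58, adjusted p = 0.0239), and Alx4, a homeobox factor of the skull and face (0.58, adjusted p = 0.0171). Neither was called without control replicate 1 or without mimic replicate 4, and Foxf2 was not without mimic replicate 2 or 5.

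Around Aldh1a2, 18 genes of the retinoic acid pathway were tested and the median log2 fold change was 0.07. Stra6, the receptor that takes up retinol, rose by 0.59 ± 0.15 on the log2 scale (SE, adjusted p = 0.0246, edgeR). Cyp26b1, which degrades retinoic acid, fell by 0.36 on the log2 scale (adjusted p = 0.0239), from 6.10 ± 0.473 CPM in controls to 4.76 ± 0.758 in mimic samples (SD, n = 6 and 5). Both calls were lost without control replicate 1 or mimic replicate 4, and that of Stra6 also without control replicate 4. The call of Cyp26b1 was also lost without control replicate 6 or mimic replicate 2 or 5, and in the fit with the replicate block. Of 6 GABA and related transporters beside Slc6a13, 0 were called, at a median log2 fold change of 0.0024. Of Hic2, Ctbp1, Ctbp2 and Sirt1, the paralogue and binding partners of Hic1, 0 of 4 were called, and the log2 fold change of Ctbp1 was -0.02 (adjusted p = 0.845). In the proteoglycan, transporter and Hic1 partner lists, 2, 1 and 0 genes had an unadjusted edgeR p under 0.05, and DESeq2 called 1, 0 and 0.

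**Figure D5:**
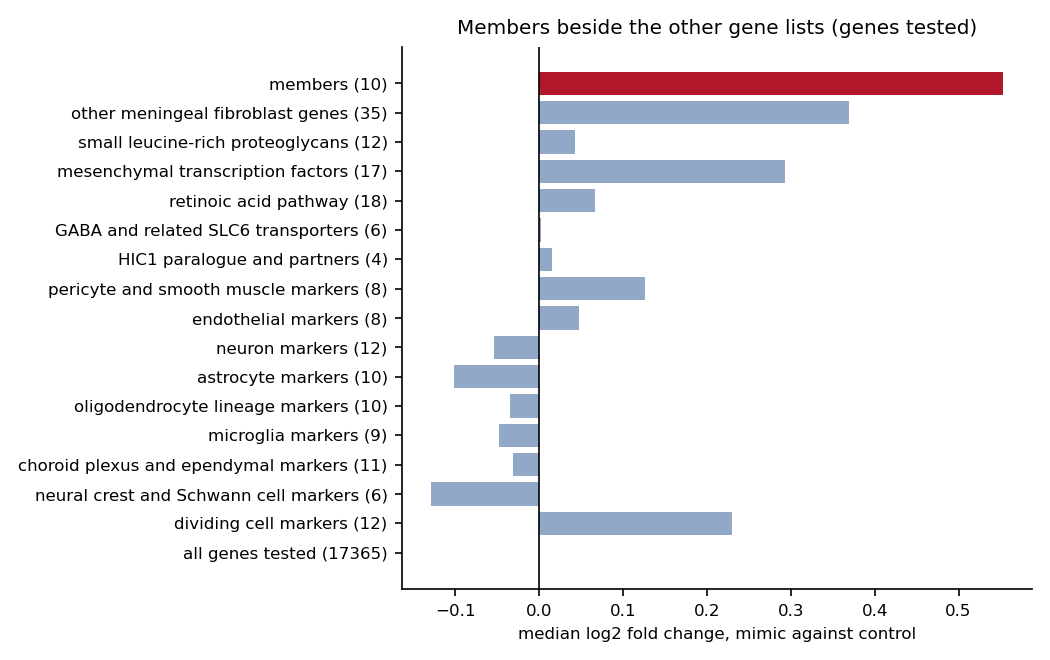
Median log2 fold change, mimic against control, of the members (red), of the other gene lists (blue) and of all genes tested, with the number of tested genes in brackets; the bars start at 0. The highest medians are those of the members (0.55), the other meningeal fibroblast genes (0.37), the mesenchymal transcription factors (0.29) and the dividing cell markers (0.23). The lowest are those of the neural crest and Schwann cell (-0.13), astrocyte (-0.10) and neuron (-0.05) markers. The members are treated as chosen with these values in view.

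Markers of other cells moved beside the members, and their part in the result was not tested. The pericyte and smooth muscle markers (12 listed, 8 tested) summed to 41.4 to 56.5 CPM in controls and 43.4 to 47.8 CPM in mimic samples. Rgs5, a pericyte marker, fell by 0.66 on the log2 scale (adjusted p = 0.0227, edgeR), a call lost without control replicate 1 or mimic replicate 2, 4 or 5. Kcnj8, Abcc9, Des and Higd1b of that list had too few counts to be tested. The endothelial markers (12 listed, 8 tested) summed to 46.9 to 55.0 and 47.6 to 57.3 CPM. Cdh5, the cadherin of endothelial junctions, rose by 0.77 ± 0.15 (log2, SE, adjusted p = 0.00713), while Cldn5, Tek, Tie1 and Ly6c1 had too few counts. All 12 dividing cell markers had positive log2 fold changes, 3 of them called (Top2a, Cdk1 and Bub1), and their sum was 93.4 to 101 CPM in controls and 107 to 119 CPM in mimic samples. Neuron markers summed to 11176 to 11424 CPM in controls and 10762 to 11038 CPM in mimic samples, and astrocyte markers to 4950 to 5390 and 4544 to 4860 CPM, both sums lower without overlap. Abundant genes weigh most in such sums. Slc1a2 alone averaged 2398 CPM in controls and 2109 CPM in mimic samples, within astrocyte sums averaging 5094 and 4679 CPM. Of the neuron markers, 10 of 12 had negative log2 fold changes (median -0.05, 2 called). Of the astrocyte markers, 8 of 10 did (median -0.10, 1 called). The sums of microglia, oligodendrocyte, choroid plexus and Schwann cell markers overlapped between the groups, and among the oligodendrocyte, microglia and Schwann cell markers 0 genes were called by edgeR or DESeq2 (2 of each list had an unadjusted edgeR p under 0.05). The most abundant oligodendrocyte and Schwann cell markers were Cspg5 with a log2 fold change of -0.02 (adjusted p = 0.787) and Pmp22 with 0.15 (adjusted p = 0.155, edgeR). Pmp22 differed in sign from its list of neural crest and Schwann cell markers. There 4 of 6 tested genes were negative and the median log2 fold change was -0.13.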

How the data were processed

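The authors made poly(A)-selected single-end libraries, mapped reads to the mouse genome (mm10, GRCm38), and deposited raw counts per Ensembl gene for each sample. The submitters' processing notes name STAR 2.5.2b, Subread 1.5.1 with featureCounts and FastQC 0.11.5. The options for strand and for reads with several positions are not given in the sources used here. The authors also deposited normalized signal for 16921 genes, counts divided by a size factor per sample, which served as an alternative (limma 3.58.1, pseudocounts of 1 and 0.5). Of 48709 genes, 48349 matched GENCODE M21, which gave symbols, positions, exon lengths and 3′ UTRs. The tables had 0 rows without a gene and 0 value columns without a sample.

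A gene was tested when 50% or more of the samples held 5 counts or more, which 17365 genes did. The test was quasi-likelihood and two-sided, run in edgeR 4.0.16 under R 4.3.3 on TMM-scaled counts with the group alone in the model, Benjamini-Hochberg adjusted over those genes, and calls were made at an adjusted p under 0.05. The fitting script was tested on simulated data. DESeq2 1.42.0, the study's tool, was an alternative, beside other scaling factors, count filters, a replicate block and leaving out each sample. Total counts were 17287168 to 48091231 per sample, and limits from counts cover counting error only, as reads carried no molecular identifiers. Replicates differed by more than sampling noise (chi-square of 1.23 or more for each degree of freedom), so none was taken for a library deposited again. This does not show that they came from separate cultures. Correlations used log2 CPM with a prior count of 2.

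The members and lists were chosen with earlier results of these data known. Named beside the members were, from every list, up to 4 called genes averaging 1 CPM or more, by smallest p, or else the 1 with the highest mean, and the 8 genes most alike. Of the genes so picked, 3 are not reported here. Slc13a4, Gjb2 and genes quoted for their levels or missing counts fall outside that rule and were named after their values were seen.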

Additional observations from a re-analysis of the deposited data

Results flagged for a closer look

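Of 26 series of values checked (each member, and sums over the members, in the 5 mimic and the 6 control samples), 1 held a sample far from the others. Lum in mimic replicate 5 was at 35.4 CPM, where the other mimic samples were at 24.2 to 25.9 CPM. The gap took 0.848 of the group's range. Chance flags about 1 in 20 such series. The same sample was the highest of all 11 for 6 of the 10 members.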

How the results depend on the processing

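Over the alternatives, the 10 members gave 188 log2 fold changes, of which 171 kept both direction and call status, 14 lost the call, 3 gained one and 0 reversed. All 14 losses were of Foxc1, and the gains were of Aldh1a2 (DESeq2 and replicate block) and Slc6a13 (replicate block). As the members are treated as chosen by this contrast, this is no sign of stability. The number of members called was 2 to 4, except that 1, Hic1, was called when every sample had to hold at least 10 counts. The covariation kept its direction. The genes called over the whole table were 495, and 785 with no count filter. Without 1 sample each they ranged from 218 to 491 (218 without control replicate 1, 237 without mimic replicate 2, 278 without mimic replicate 4), and the members called from 2 to 3. With upper-quartile factors 226 genes were lower and 234 higher, against 307 and 188, with a median shift of 0.01 over all genes. Same-numbered samples did not deviate together (r of -0.023 to 0.016 over 5 pairs, and -0.073 to 0.078 over the 25 other pairs). This gave no sign that the numbers pair the samples but cannot exclude it. The members' mean deviation was lowest in replicates 1 and 2 of both groups (-0.30 and -0.14 in control, -0.20 and -0.10 in mimic samples). It was highest in control replicate 4 and mimic replicate 5, and pairing of the members by number was not tested. The fit with the replicate block, on 10 samples, called 328 genes and 4 members. The cause was not tested for any of these. Of the other meningeal fibroblast genes, 2 to 9 were called under the alternatives that kept all samples or used the replicate block and 0 to 5 without 1 sample. Of the named genes, Cdh5, Top2a and Slc1a2 kept their call in all 19 alternatives. Reads of 2 to 17 for Foxc2 and 6 to 29 for Foxd1 limit both.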

Other observations

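Dividing cell markers were the other list whose tested genes were all higher in the mimic samples, 12 of 12, with a median log2 fold change of 0.23. Top2a, a DNA topoisomerase of dividing cells, was at 18.1 to 23.3 CPM in controls and 23.6 to 27.6 CPM in mimic samples, separate groups, with a log2 fold change of 0.38 ± 0.062 (SE, adjusted p = 0.00188, edgeR). Cdk1, the kinase that starts mitosis, and Bub1, a spindle checkpoint kinase, rose by 0.38 (adjusted p = 0.0203) and 0.47 (adjusted p = 0.0306). The call of Cdk1 was lost without control replicate 1 or mimic replicate 2 or 5. That of Bub1 was lost without control replicate 1 or 2 or mimic replicate 2, 4 or 5, and with the authors' normalized values at either pseudocount. Within the groups the 12 dividing cell markers had a median r of 0.42 with the members' mean deviation, over 11 samples.

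Slc1a2, the main astrocyte glutamate transporter, fell by 0.18 on the log2 scale (adjusted p = 9.95e-05), and all 5 mimic samples (2057 to 2158 CPM) lay below all 6 controls (2302 to 2514 CPM). Slc17a7, the vesicular glutamate transporter of excitatory neurons, fell by 0.14 (adjusted p = 0.0239), and Camk2a, a synaptic kinase, by 0.09 (adjusted p = 0.0305). The call of Slc17a7 was lost without control replicate 1 or mimic replicate 2 or 4, and that of Camk2a under upper-quartile factors and in 7 of the 11 fits that left out 1 sample. Foxj1, the factor of ciliated cells, rose by 0.22 (adjusted p = 0.0494) and was not called in 14 of 19 alternatives, while Ttr and the other choroid plexus markers gave no further call.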
